A study of Mus musculus with 12 samples.

Results

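Whole lungs of C57BL/6 mice were profiled by bulk RNAseq before birth (E15.5 and E18.5) and after it (P5 and P8), and 10 transcription factors of the lung epithelium were followed through them. The factors were taken by gene symbol from a list made with earlier results of these data known: *Nkx2-1*, *Foxa1*, *Foxa2*, *Gata6*, *Sox2*, *Foxp1*, *Foxp2*, *Cebpa*, *Klf5* and *Elf5*. All 10 were among the 16152 genes of the deposited count table, and all 10 were among the 15994 genes that passed the filter on low counts. Each time-point had 3 replicates, which gave 12 libraries of untreated wild-type lungs. The lungs were from females and males, and each time-point drew its 3 replicates from 1 litter, so litter and time-point cannot be told apart. The p-values therefore measure the spread among littermates.

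These factors specify and maintain the epithelial lining of the lung. NKX2-1 is a homeodomain protein that marks lung and thyroid endoderm and drives surfactant genes, and the forkhead proteins FOXA1 and FOXA2 open chromatin in foregut endoderm. GATA6 is a zinc finger protein of endoderm and heart, and SOX2 marks the proximal (airway) part of the branching epithelium, as SOX9 marks its distal tips. FOXP1 and FOXP2 are forkhead repressors of airway and distal lineages, and C/EBPα, KLF5 and ELF5 act in the differentiating distal and alveolar epithelium. Several are also used outside the epithelium, such as *Foxp1* in blood vessels and lymphocytes and *Cebpa* in myeloid cells and fat, and whole-lung RNA does not separate these sources.

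To show the sequence next to which each of these genes starts, the 250 bases before the RefSeq start site (build GRCm38.p6, the same assembly as mm10) are printed for *Nkx2-1*, the factor at the highest level before birth, and for the 3 genes with a listed promoter whose level changed by more than 1 on the log2 scale around birth (E18.5 to P5). *Foxa1* and *Sox2* fell and *Cebpa* rose over that interval, as described further on. Capitals mark matches to the forkhead motif TGTTTAC or the SOX motif ACAAAG on either strand, and in *Foxa1* 3 such matches overlap each other.
*Nkx2-1*, minus strand, chr12:56536909-56537158: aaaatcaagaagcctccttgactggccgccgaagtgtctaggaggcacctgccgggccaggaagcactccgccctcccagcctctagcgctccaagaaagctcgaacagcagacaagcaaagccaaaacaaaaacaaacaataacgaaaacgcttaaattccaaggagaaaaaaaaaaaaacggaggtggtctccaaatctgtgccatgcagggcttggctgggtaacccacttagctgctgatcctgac
*Foxa1*, minus strand, chr12:57546112-57546361: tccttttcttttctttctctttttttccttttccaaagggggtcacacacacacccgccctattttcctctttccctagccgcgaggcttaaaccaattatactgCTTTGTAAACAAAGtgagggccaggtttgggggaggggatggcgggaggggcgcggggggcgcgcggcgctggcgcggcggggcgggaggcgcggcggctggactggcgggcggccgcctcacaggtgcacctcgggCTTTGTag
*Sox2*, plus strand, chr3:34649745-34649994: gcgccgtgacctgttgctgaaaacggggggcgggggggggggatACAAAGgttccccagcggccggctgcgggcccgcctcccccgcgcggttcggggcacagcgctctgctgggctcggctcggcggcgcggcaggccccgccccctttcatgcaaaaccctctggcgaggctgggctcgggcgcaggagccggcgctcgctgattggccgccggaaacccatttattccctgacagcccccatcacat
*Cebpa*, plus strand, chr7:35119043-35119292: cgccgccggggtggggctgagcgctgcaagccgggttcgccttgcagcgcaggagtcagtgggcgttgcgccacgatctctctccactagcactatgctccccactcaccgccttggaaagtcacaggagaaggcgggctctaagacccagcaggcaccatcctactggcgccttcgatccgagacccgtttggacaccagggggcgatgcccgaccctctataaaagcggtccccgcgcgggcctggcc
The search covered 12 such windows, which belong to 7 of the 10 genes. Windows of the other members were not searched, so the counts below do not cover them. Of 8 motifs searched on both strands, the forkhead motif TGTTTAC was in the window of *Foxa1* and in 3.17% of the 32851 windows of all genes. ACAAAG was in 5 of the 12 windows, at *Foxa1*, *Foxa2*, *Foxp1* and *Sox2*, and in 16.5% of all windows. A second forkhead motif, TGTTTGC, was found at *Foxp1* and in 4.30% of all windows. The GATA factor motif AGATAA was found at *Foxa2* and in 9.99% of all windows. The NKX motif CTCAAG was at *Foxa2* too, and in 13.3% of all windows. The ETS motif AGGAAGT was likewise at *Foxa2* and in 7.69% of all windows. The KLF motif GGGCGTGG was in none of the 12 windows and in 4.79% of all. The same held for the C/EBP motif TTGCGCAA, which 0.164% of all windows carried. These matches describe letters in a window and are not binding sites. RefSeq starts can differ from those of the Gencode gene models, which give the gene positions below. The *Foxa1* window lies inside its Gencode gene and holds 10 exon bases. That of *Sox2* ends at 34649994, where the Gencode gene starts at 34650405. A window of *Elf5* held exon bases at all 250 positions. The window of *Sox2* was 72.0% G and C and that of *Nkx2-1* 50.8%, where the median window held 52.4%.

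The libraries held 41337443 to 53901957 counts each, and the CPM (counts scaled to the mapped reads of the library) given below rest on 196 to 11526 reads per factor and library. General epithelial genes were present throughout, as *Epcam* at 60.9 to 216 CPM and *Krt8* at 102 to 169 CPM in the 12 libraries. Some libraries also held genes of neighbouring organs. The summed level of 8 genes of squamous foregut epithelium (*Krt4*, *Krt5*, *Krt13* and others) was 935 and 729 CPM in P8 replicates 1 and 2, and 5.12 to 40.9 CPM in the other 10 libraries. The sum of 10 thymus genes was 178, 337 and 37.7 CPM in P8 replicates 1 and 2 and E15.5 replicate 2, and 2.60 to 16.1 CPM elsewhere. The sum of 6 heart genes was 950 and 1180 CPM in E15.5 replicates 1 and 2 and at most 324 CPM elsewhere, with 57.7 CPM in E15.5 replicate 3. *Tg*, the thyroglobulin gene of the thyroid, which also uses *Nkx2-1*, was at 1.18 CPM or less in every library. Calls of a member that changed when the libraries with foregut, thymus or heart genes were left out are given with both log2 fold changes. Leaving out the foregut or thymus libraries keeps 1 library at P8, and leaving out the heart libraries keeps 1 at E15.5, so those fits assume that a lone library varies as the other time-points do.

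The comparisons were E15.5 to E18.5 (embryonic), E18.5 to P5 (perinatal), P5 to P8 (postnatal), and E15.5 to P8. Of the 3 intervals between neighbouring time-points, the perinatal one had the most members past the threshold. Over it *Foxp2*, *Foxa1*, *Sox2*, *Nkx2-1*, *Foxa2* and *Gata6* fell, *Cebpa* and *Foxp1* rose, and *Klf5* and *Elf5* were not past the threshold (edgeR quasi-likelihood test after TMM normalization, Benjamini-Hochberg FDR under 0.05 over all genes tested). These 8 of 10 stand beside 71.1% of all genes tested, a share near that of the members. With the absolute log2 fold change also above 1, 4 members remained (*Foxp2*, *Foxa1* and *Sox2* down and *Cebpa* up) and 26.8% of all genes. The median log2 fold change was -0.41 over the 10 members and 0.00 (-0.0024) over all genes.

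In the embryonic interval, 5 of 10 members were past the FDR threshold, with *Elf5*, *Klf5*, *Foxp1* and *Foxp2* up and *Gata6* down, beside 21.5% of all genes. None was past the log2 fold change of 1, which 3.04% of all genes were. The count moved between 3 and 8 when single libraries were left out, with 3 without E15.5 replicate 2 or E18.5 replicate 1 and 8 without P8 replicate 2 or P8 replicate 3. The share of all genes in those fits is not given here. No member was past the threshold without both E15.5 libraries that held heart genes. In the postnatal interval, 4 members rose (*Sox2*, *Foxa1*, *Gata6* and *Klf5*) and none fell, beside 18.0% of all genes, and *Sox2* alone was past both cutoffs, beside 2.96%. Without P8 replicates 1 and 2, 2 of these 4 were past the threshold, *Sox2* and *Gata6*.

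Across the whole course, from E15.5 to P8, 9 of 10 members were past the FDR threshold, 4 up and 5 down, beside 76.3% of all genes. Past both cutoffs were 4 members, *Cebpa*, *Klf5* and *Foxp1* up and *Foxp2* down, beside 32.3% of all genes. *Sox2* was the member not past the threshold (log2 fold change -0.21, SE 0.17, FDR = 0.274), where SE stands for the standard error of the log2 fold change. The count was 8 without the foregut, without the thymus and without the heart libraries.

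**Figure D1:**
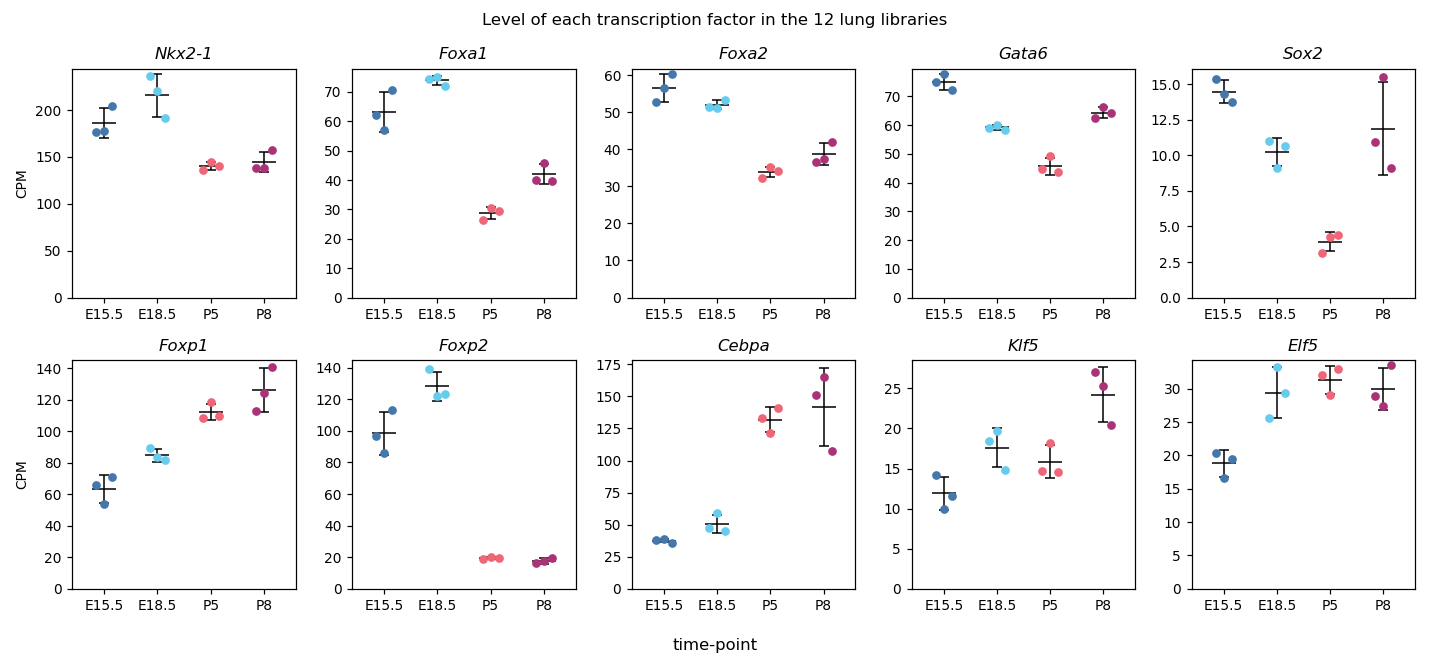
CPM of each factor (vertical axis, from 0) in the 3 libraries of each time-point (horizontal axis), with each library as a point and the mean and SD as bars. *Foxp2* dropped from between 122 and 139 CPM at E18.5 to between 18.7 and 20.2 at P5, and *Cebpa* rose from between 45.0 and 58.9 to between 122 and 141 CPM.

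*Nkx2-1* (ENSMUSG00000001496), the defining homeodomain factor of lung endoderm, lies on the minus strand of chromosome 12 from 56531958 to 56536908 (mm10). Its level was 177, 177 and 204 CPM in the 3 libraries at E15.5, 237, 220.4 and 191 CPM at E18.5, 136, 145 and 140.2 at P5, and 138, 138 and 157 CPM at P8. Every postnatal library lay below every embryonic one, and the embryonic time-points overlapped. The perinatal log2 fold change was -0.54 (SE 0.09, FDR = 0.000137), against 0.22 before it (SE 0.09, FDR = 0.091) and 0.03 after it (SE 0.09, FDR = 0.868). Over the whole course the log2 fold change was -0.29 (FDR = 0.00928), and it was not past the threshold without P8 replicates 1 and 2 (-0.17, FDR = 0.257) or without the 3 libraries with thymus genes (-0.20, FDR = 0.199).

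*Foxa1* (ENSMUSG00000035451, chromosome 12, 57540628 to 57546916, minus strand) and *Foxa2* (ENSMUSG00000037025, chromosome 2, 148042877 to 148046969, minus strand) encode related forkhead proteins that share targets in endoderm. *Foxa1* was at 62.1, 57.0 and 70.6 CPM at E15.5, 74.5, 75.2 and 72.2 CPM at E18.5, 26.3, 30.4 and 29.6 at P5, and 40.2, 45.8 and 39.8 CPM at P8. No 2 neighbouring time-points overlapped, and P5 was the lowest. On the log2 scale it changed by -1.28 around birth (SE 0.09, FDR = 5.66e-08) and by 0.53 in the postnatal interval (SE 0.08, FDR = 0.00298), and the embryonic difference of 0.23 missed the threshold (SE 0.08, FDR = 0.0652). The later rise was 0.45 without P8 replicates 1 and 2 (FDR = 0.0788).

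*Foxa2* was at 52.8, 56.6 and 60.3 CPM at E15.5, 51.4, 51.2 and 53.3 CPM at E18.5, 32.4, 35.2 and 34.0 at P5, and 36.6, 37.5 and 42.0 CPM at P8. The embryonic time-points overlapped, and each P5 library lay below each library of every other time-point. The perinatal change was -0.53 on the log2 scale (SE 0.07, FDR = 1.63e-05). The differences before and after it, -0.12 (FDR = 0.239) and 0.18 (FDR = 0.092), were not past the threshold. Within each library, the ratio of *Foxa1* to *Foxa2*, each per kb of exons, does not depend on library scaling. It averaged 0.796 ± 0.069 and 1.01 ± 0.0438 at the embryonic time-points (SD, n = 3), and 0.604 ± 0.0225 and 0.776 ± 0.0976 at P5 and P8. The P5 ratios, 0.578 to 0.619, lay below those of every other library, so the 2 paralogs did not fall in the same proportion.

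*Foxp1* (ENSMUSG00000030067, chromosome 6, 98925338 to 99522721, minus strand) and *Foxp2* (ENSMUSG00000029563, chromosome 6, 14901349 to 15441977, plus strand) encode forkhead repressors that act together in airway epithelium. *Foxp2* was at 96.4, 85.8 and 113 CPM at E15.5, 139, 122 and 124 CPM at E18.5, 18.7, 20.2 and 19.8 at P5, and 16.2, 17.5 and 19.7 CPM at P8. The embryonic and postnatal libraries were far apart, and P5 and P8 overlapped. The perinatal fall was the largest change of any of the 10 members in the 3 intervals, at -2.63 on the log2 scale (6.17-fold, SE 0.11, FDR = 1.64e-09). Before it, *Foxp2* rose by 0.39 (SE 0.10, FDR = 0.0167), which was 0.18 without both E15.5 libraries with heart genes (FDR = 0.38). This earlier rise also missed the threshold without E15.5 replicate 1 (0.37, FDR = 0.0548), E15.5 replicate 2 (0.30, FDR = 0.0554) or E18.5 replicate 1 (0.32, FDR = 0.0736).

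*Foxp1* was at 65.9, 53.6 and 70.7 CPM at E15.5, 89.5, 83.9 and 81.5 CPM at E18.5, 109, 118 and 109.6 at P5, and 113, 124 and 141 CPM at P8. Its level stepped up without overlap in the embryonic interval (log2 fold change 0.43, SE 0.10, FDR = 0.00992) and again around birth (0.49, SE 0.10, FDR = 0.000607). The first step was 0.26 without both E15.5 libraries with heart genes (FDR = 0.174). The postnatal difference was 0.15 (FDR = 0.298), and the libraries overlapped. The ratio of *Foxp2* to *Foxp1* per kb of exons was 1.31 ± 0.0664 at E15.5 and 1.27 ± 0.0423 at E18.5, and 0.147 ± 0.00453 at P5 and 0.119 ± 0.00141 at P8 (SD, n = 3). Per length, *Foxp2* was the more abundant of the 2 in each embryonic library and *Foxp1* in each postnatal one. Endothelial genes, a lineage in which *Foxp1* is also used, moved with it around birth (8 of 8 rose, median log2 fold change 1.21). In that interval 71.1% of all genes were past the threshold. The part of endothelial cells in the *Foxp1* values was not tested.

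*Cebpa* (ENSMUSG00000034957, chromosome 7, 35119293 to 35121928, plus strand) encodes C/EBPα, a leucine zipper factor of alveolar type 2 (AT2) cell maturation. Its level was 38.3, 38.6 and 36.1 CPM at E15.5, 47.7, 58.9 and 45.0 CPM at E18.5, 133, 122 and 141 at P5, and 151, 166 and 107 CPM at P8. The first 3 time-points did not overlap, while the P8 libraries spread on both sides of P5. The perinatal rise was 1.47 on the log2 scale (2.78-fold, SE 0.15, FDR = 1.59e-06), and the embryonic difference was 0.43, just outside the threshold (SE 0.14, FDR = 0.0506). Leaving out the foregut (0.44) or the thymus libraries (0.45) took that embryonic difference past the threshold, with little change in size. The foregut libraries are not part of this comparison. The difference was not past the threshold without the heart libraries (0.48) or relative to the epithelial genes described below (0.26, FDR = 0.147). The postnatal log2 fold change was 0.08 (FDR = 0.721), and -0.33 without P8 replicates 1 and 2 (FDR = 0.243). Around birth all 10 AT2 genes rose (median log2 fold change 4.45), beside 71.1% of all genes past the threshold in either direction. *Sftpd* went from 1.90 ± 0.417 to 419 ± 72.5 CPM and *Slc34a2* from 17.8 ± 8.71 to 1360 ± 86.5 CPM. Leukocyte genes also rose (7 of 7, summed level from 30.4 to 35.1 before birth at E18.5 and from 163 to 199 CPM at P5), and their part in the *Cebpa* values was not tested.

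*Elf5* (ENSMUSG00000027186, chromosome 2, 103411688 to 103450989, plus strand) encodes an ETS factor of the distal epithelium. It was at 20.4, 16.6 and 19.5 CPM at E15.5, 25.6, 33.2 and 29.3 CPM at E18.5, 32.1, 29.0 and 33.0 at P5, and 28.9, 27.4 and 33.5 CPM at P8. Only E15.5 stood apart, below every other library. The embryonic rise was 0.65 on the log2 scale (SE 0.11, FDR = 0.00268), and 0.59 without both E15.5 libraries with heart genes (FDR = 0.0594). The perinatal log2 fold change was 0.18 (95% interval -0.03 to 0.40, FDR = 0.153) and the postnatal one was -0.09 (95% interval -0.30 to 0.13, FDR = 0.623).

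*Klf5* (ENSMUSG00000005148, chromosome 14, 99298691 to 99315036, plus strand) encodes a zinc finger factor of alveolar and squamous epithelia. It was at 14.2, 10.01 and 11.6 CPM at E15.5, 18.4, 19.6 and 14.8 CPM at E18.5, 14.7, 18.2 and 14.6 at P5, and 27.1, 25.2 and 20.4 CPM at P8. E15.5 was lowest and P8 highest, with E18.5 and P5 overlapping between them. It rose by 0.57 in the embryonic interval (SE 0.16, FDR = 0.0249) and by 0.60 in the postnatal one (SE 0.16, FDR = 0.0236), and the change between was -0.07 (95% interval -0.38 to 0.24, FDR = 0.715). The earlier rise missed the threshold without E15.5 replicate 2 (0.46), E15.5 replicate 3 (0.56), E18.5 replicate 1 (0.53), E18.5 replicate 2 (0.49), both E15.5 libraries with heart genes (0.60, FDR = 0.135) or the 3 libraries with thymus genes (0.46, FDR = 0.0579). The later one missed it without P5 replicate 1 (0.56), P5 replicate 3 (0.52), P8 replicate 1 (0.48) or P8 replicate 2 (0.58), and it was 0.34 without both P8 libraries that held squamous foregut genes (FDR = 0.445) and without the 3 with thymus genes (FDR = 0.326). P8 replicate 3, with 15.4 CPM of those genes in sum, was at 20.4 CPM of *Klf5*, above each P5 library, and the P8 libraries with 935 and 729 CPM of them were at 27.1 and 25.2 CPM.

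*Sox2* (ENSMUSG00000074637, chromosome 3, 34650405 to 34652461, plus strand), an HMG box factor of the airway epithelium that is also made in the oesophagus, was the member with the deepest dip. It was at 15.4, 14.3 and 13.8 CPM at E15.5, 10.98, 9.09 and 10.6 CPM at E18.5, 3.15, 4.23 and 4.37 at P5, and 10.96, 15.49 and 9.14 CPM at P8. P5 lay below every other library, and P8 spread over the range of both embryonic time-points. On the log2 scale the perinatal change was -1.30 (2.47-fold, SE 0.18, FDR = 3.1e-05) and the postnatal one 1.58 (2.996-fold, SE 0.18, FDR = 0.000579), while the embryonic difference of -0.49 missed the threshold (SE 0.17, FDR = 0.0608). Leaving out the foregut (-0.48) or the thymus libraries (-0.50) took that difference past the threshold, with little change in size. Without the heart libraries it was -0.43 and not past the threshold.

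The P8 values of *Sox2* followed other gene lists only in part. Foregut genes summed highest in replicate 1 (935 CPM, against 729 CPM in replicate 2), while *Sox2* was highest in replicate 2. The P8 replicates with foregut genes were at 10.96 and 15.49 CPM of *Sox2*, and replicate 3, in which *Krt13* was at 0.888 CPM against 334 and 256 CPM in the other 2, was at 9.14 CPM. All 3 P8 libraries lay above each P5 library, replicate 3 included. The rise without replicates 1 and 2 was 1.20, a value that rests on 1 library at P8. From E15.5 to P8, the call of *Sox2* also changed without replicates 1 and 2 and without the 3 libraries with thymus genes. The log2 fold change was -0.59 in both fits, again with 1 library at P8. With all libraries the difference was not past the threshold (-0.21), and it was past it without P8 replicate 2 alone (-0.43, FDR = 0.0224). The 6 cartilage genes, which mark large airways, summed to between 61.9 and 67.8 CPM at E15.5, between 37.1 and 47.9 at E18.5 and between 4.95 and 15.8 CPM at P5. At P8 they were at 68.5, 113 and 5.33 CPM in replicates 1 to 3. The P8 library highest in *Sox2* was also the highest in cartilage genes, and the lowest was the lowest. Replicate 3 lay within the P5 range of cartilage genes, while its *Sox2* was above the P5 range of *Sox2*. The part of these cells in the *Sox2* values was not tested. Of the 7 airway secretory genes 5 rose in the postnatal interval and none fell, beside 18.0% of all genes past the threshold. Of the 7 ciliated cell genes 5 rose, including *Foxj1*, the ciliated cell regulator (36.0 to 70.6 CPM on average). These counts include P8 replicates 1 and 2, and counts without them are not given here. The summed ciliated genes were at 217 to 268 CPM at P5 and 346, 389 and 332 CPM at P8. Whether airway content or *Sox2* per airway cell moved cannot be told apart here.

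**Figure D2:**
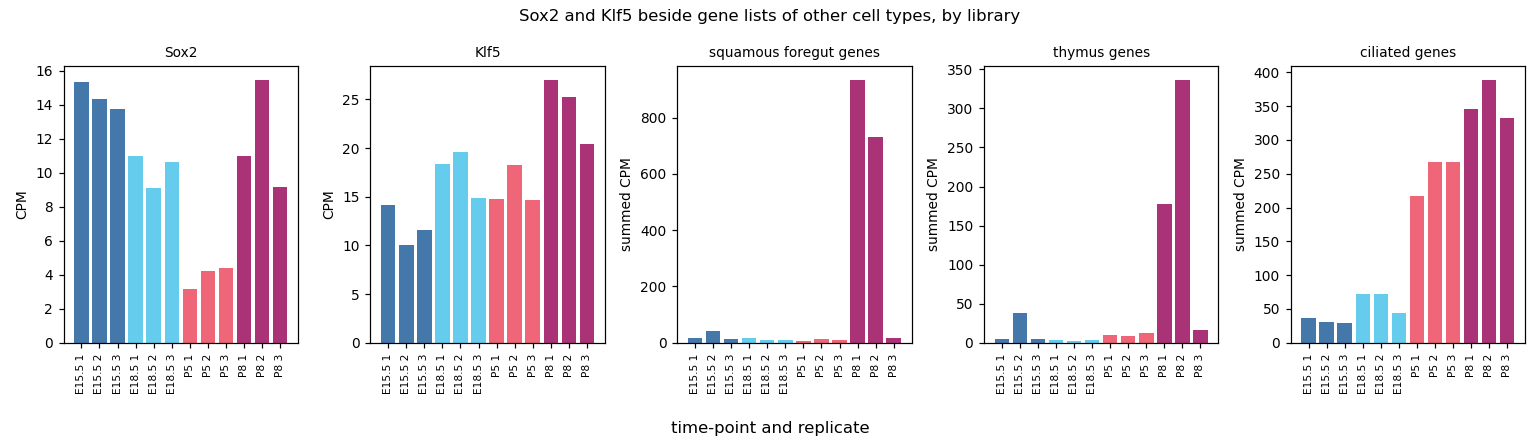
CPM of *Sox2* and *Klf5* and summed CPM of the squamous foregut, thymus and ciliated cell lists (vertical axes, from 0) in each of the 12 libraries, as 1 bar per library. P8 replicates 1 and 2 carried 935 and 729 CPM of foregut genes and replicate 3 15.4 CPM, while *Sox2* was above its P5 range (3.15 to 4.37 CPM) in all 3.

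*Gata6* (ENSMUSG00000005836, chromosome 18, 11052064 to 11085635, plus strand) was at 75.2, 77.8 and 72.1 CPM at E15.5, 59.2, 60.1 and 58.3 CPM at E18.5, 44.6, 49.1 and 43.6 at P5, and 62.4, 66.2 and 64.3 CPM at P8. No pair of time-points overlapped. On the log2 scale it fell by 0.34 in the embryonic interval (SE 0.06, FDR = 0.00252) and by 0.28 around birth (SE 0.06, FDR = 0.000618), and rose by 0.47 in the postnatal interval (SE 0.06, FDR = 0.000748). GATA6 is also a heart factor. E15.5 replicate 3, the library without raised heart genes, was at 72.1 CPM, still above each E18.5 library, and without the other 2 the difference to E18.5 was -0.29 (FDR = 0.0731). From E15.5 to P8 *Gata6* differed by -0.15 (FDR = 0.0306), a call that was lost in each of 5 fits without 1 library, namely E15.5 replicate 1 or 2 or any P8 replicate (FDR between 0.0581 and 0.101), and with DESeq2 (FDR = 0.113). It was lost too without the foregut (-0.15, FDR = 0.156), the thymus (-0.11, FDR = 0.272) or the heart libraries (-0.10, FDR = 0.299). Mesothelial genes, of the lining of the lung, also moved in part with *Gata6*. Of 4, 3 fell in the embryonic interval, 1 fell and 3 rose around birth, and 4 rose in the postnatal one. Of all genes, 21.5%, 71.1% and 18.0% were past the threshold in these intervals. The mesothelial sums were between 105 and 173 CPM at P5 and between 442 and 491 CPM at P8. *Wt1*, a mesothelial transcription factor, went through 11.7, 4.88, 2.06 and 6.91 CPM on average at the 4 time-points. It was the 1 of these genes that fell around birth. *Msln* (log2 fold change 4.27), *Lrrn4* (0.79) and *Upk3b* (0.42) rose from E18.5 to P5, while *Gata6* fell. The part of mesothelium in the *Gata6* values was not tested.

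Levels can be ordered between genes only per length, and here CPM was divided by the kb of merged exons in the annotation. At E15.5 *Nkx2-1* led with 65.5 ± 5.54 CPM per kb (SD, n = 3), ahead of *Foxa2* at 23.9 ± 1.59 and *Foxa1* at 19.0 ± 2.08, and *Klf5* was last at 2.29 ± 0.403. In that order only *Sox2* and *Foxp2* overlapped as neighbours. At E18.5 *Nkx2-1* was at 76.0 ± 8.08 CPM per kb, *Foxa1* at 22.2 ± 0.468, *Foxa2* at 21.9 ± 0.499 and *Cebpa* at 19.2 ± 2.79, and each neighbouring pair among *Foxa1*, *Foxa2* and *Cebpa* overlapped. At P5 *Cebpa* (50.1 ± 3.71) and *Nkx2-1* (49.4 ± 1.60) led with overlapping libraries, and they did so again at P8 (53.7 ± 11.5 and 50.9 ± 3.81). *Foxp2* went from the seventh place at E15.5 and the sixth at E18.5 to the last at P5 and P8, at 1.20 ± 0.0454 and 1.09 ± 0.110 CPM per kb. Splicing or start site choice changes the length actually transcribed, which the merged exons do not follow.

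**Figure D3:**
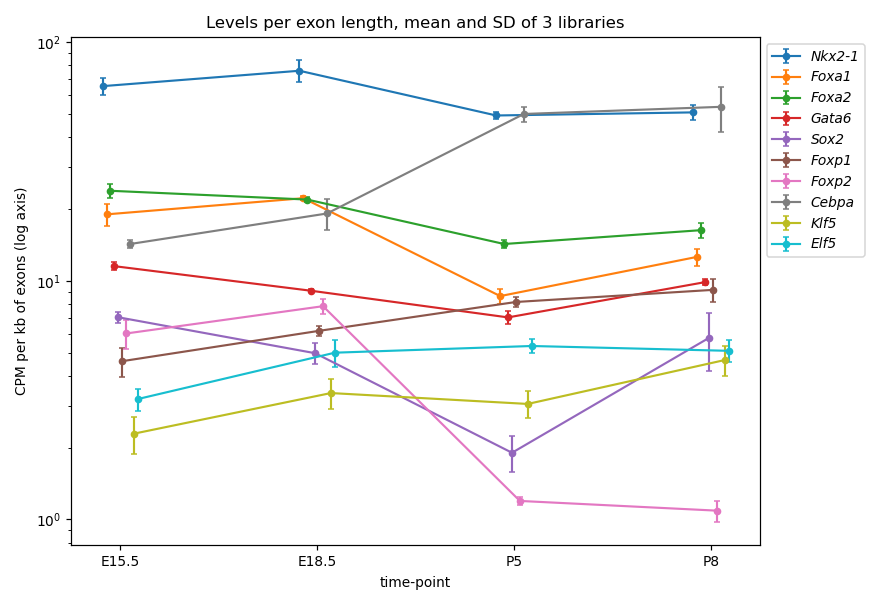
Level of each factor in CPM per kb of merged exons (vertical axis, log scale) at the 4 time-points (horizontal axis), as mean and SD of 3 libraries. The lines of *Cebpa* (19.2 to 50.1) and *Nkx2-1* (76.0 to 49.4) meet between E18.5 and P5, and *Foxp2* drops from 7.84 to 1.20.

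In bulk lung, fewer epithelial cells and less RNA per epithelial cell cannot be told apart. The 18 general epithelial genes themselves were mixed around birth. Of these, 9 fell, 3 rose and 6 were not past the threshold, which 71.1% of all genes were. Their median log2 fold change was -0.18. The adhesion gene *Epcam* fell from 209 ± 4.75 to 63.8 ± 4.22 CPM and the tight junction gene *Cldn4* from 47.1 ± 2.16 to 14.2 ± 0.820 CPM. In the postnatal interval 10 of the 18 rose and none fell (median 0.29), beside 18.0% of all genes past the threshold. P8 replicates 1 and 2 held the 935 and 729 CPM of squamous foregut genes given above. Without these libraries 1 of the 18 was past the threshold, upward, and all 18 log2 fold changes were above 0 (median 0.23). When the libraries were scaled to this list instead of by TMM, the median log2 fold change of all genes moved to -0.18 in the embryonic, 0.26 in the perinatal and -0.36 in the postnatal interval, and changes of the members are read relative to the list.

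Relative to the epithelial list, *Foxp2* (-2.36, FDR = 5.17e-10), *Sox2* (-1.04, FDR = 0.000171), *Foxa1* (-1.01, FDR = 5.34e-07), *Foxa2* (-0.27, FDR = 0.0376) and *Nkx2-1* (-0.27, FDR = 0.0218) remained lower at P5 than at E18.5. *Cebpa* (1.75, FDR = 1.7e-08), *Foxp1* (0.75, FDR = 3.46e-05) and, past the threshold on this scale, *Elf5* (0.45, FDR = 0.00939) were higher. *Gata6* was not past it (-0.02, FDR = 0.841). The shares of all genes past the threshold on this scale are not given here. In the embryonic interval 3 members were past the threshold on this scale, 1 up (*Elf5*) and 2 down (*Gata6* and *Sox2*), where TMM gave 4 up and 1 down. In the postnatal interval the split turned, with *Sox2* up (1.21, FDR = 0.000379) and *Nkx2-1* (-0.33, FDR = 0.00909), *Elf5* (-0.44, FDR = 0.0133) and *Foxp2* (-0.51, FDR = 0.0031) down, where TMM gave 4 up and none down. None of these 3 downward calls was kept on the epithelial scale without P8 replicates 1 and 2, at -0.14 for *Nkx2-1* (FDR = 0.435), -0.21 for *Elf5* (FDR = 0.428) and -0.29 for *Foxp2* (FDR = 0.207). In that fit *Sox2* was up (0.92, FDR = 0.029) and *Cebpa* down (-0.60, FDR = 0.0352). The perinatal fall of *Foxa2* and *Nkx2-1* was no longer past the threshold with the keratins taken out of the list (-0.20, FDR = 0.096, and -0.19, FDR = 0.0655).

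**Figure D4:**
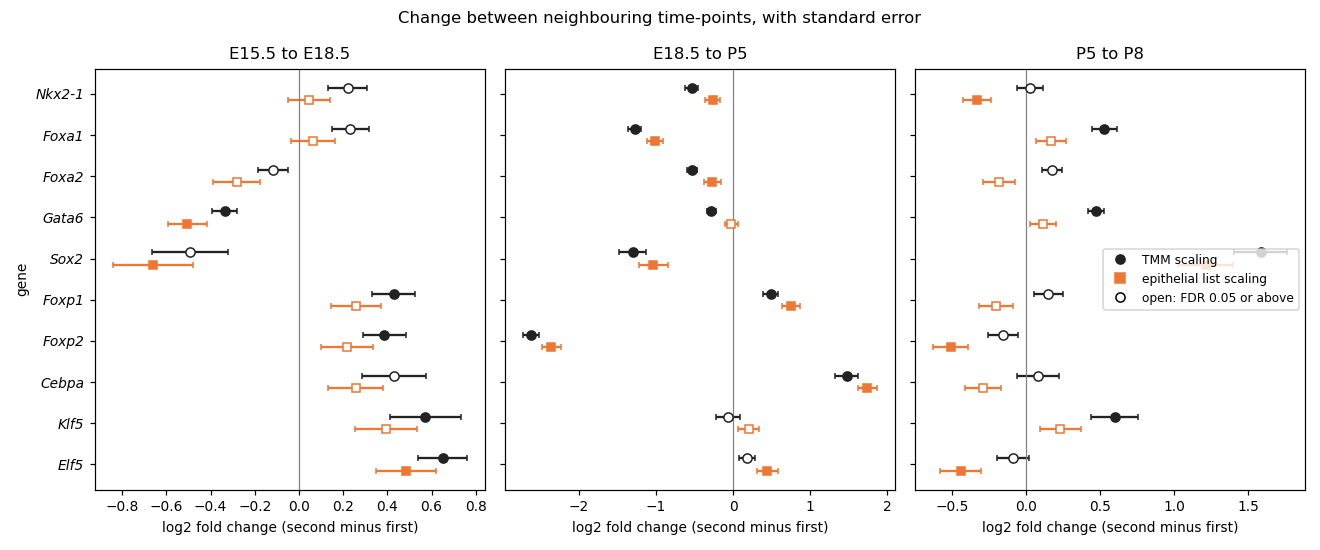
Log2 fold change (horizontal axis, second time-point minus first, with standard error) of each factor (vertical axis) in the 3 intervals, with TMM scaling as circles and epithelial list scaling as squares, filled where the FDR was under 0.05. In the perinatal interval *Foxp2* lay at -2.63 and -2.36 and *Cebpa* at 1.47 and 1.75, and in the postnatal one *Sox2* was above 0 on both scales.

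Other transcription factors of lung epithelium, 26 in a list written for this comparison, were also divided around birth. Of these, 10 fell, 4 rose and 12 were not past the threshold, which 71.1% of all genes were. Their median log2 fold change was -0.40. *Sox9*, the distal tip factor, fell by 2.99 on the log2 scale. *Hopx*, a homeodomain protein of AT1 cells, rose by 2.298 (22.9 ± 7.03 to 106 ± 3.99 CPM). *Tfcp2l1*, a grainyhead-like factor, rose by 2.27 (7.41 to 33.6 CPM on average). Of the 10 distal tip genes, 6 fell and 2 rose, *Wnt7b* from 103 ± 7.63 to 18.8 ± 1.41 CPM, and 9 of 10 AT1 genes rose (median 2.299), with *Aqp5* from 1.18 ± 0.337 to 158 ± 8.45 CPM.

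Of 15 partners and cofactors of these factors, 7 fell, 3 rose and 5 were not past the threshold around birth (median log2 fold change -0.15). None was past the log2 fold change of 1. Of all genes, 71.1% were past the threshold and 26.8% past both cutoffs. *Wwtr1*, which encodes the NKX2-1 coactivator TAZ, rose from 150 ± 10.2 to 258 ± 5.39 CPM (0.86). *Hdac2* and *Hdac3*, histone deacetylases that FOXP proteins can recruit, fell from 188 ± 10.9 to 107 ± 5.71 CPM (-0.72) and from 97.3 ± 8.83 to 58.2 ± 2.3 CPM (-0.65). *Nr3c1*, the glucocorticoid receptor, rose by 0.61 in the embryonic interval (FDR = 0.000365) and by 0.44 around birth (FDR = 5.03e-05), with mean levels of 107, 162 and 207 CPM at the first 3 time-points.

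The genes with the time course most like each member were found by the smallest root mean square distance between centred mean log2(CPM + 1) profiles over the 4 time-points, among all genes tested. For *Foxp2* these were *Ak4* (53.6, 70.9, 11.4 and 10.2 CPM on average at the 4 time-points in order, distance 0.06), *Homer2* (0.129) and *Hk2*, the glycolytic hexokinase (0.132). For *Foxa1* they were *Rnf43*, a WNT pathway ubiquitin ligase (34.6, 41.9, 16.5 and 23.9 CPM, distance 0.0321), *Hr* and *Katnal2*. *Sox2* had the most distant neighbours, *Col6a6* (0.12), *Crb2* (0.133) and *Sfrp2*, a secreted WNT antagonist (60.6, 35.0, 15.2 and 49.8 CPM, 0.151). For *Cebpa* they were *Mgst1*, a microsomal glutathione transferase (35.7, 49.2, 126 and 129 CPM, distance 0.0288), *Castor1* and *Fcgr2b*, an Fc receptor of leukocytes. The other 6 members had neighbours at 0.00864 to 0.0638, *Nek1* for *Nkx2-1*, *Timmdc1* for *Foxa2*, *Mdh2* for *Gata6*, *Upp1* for *Foxp1*, *Bicdl2* for *Klf5* and *Akap9* for *Elf5* among them. With 4 points per profile these distances are descriptions, and 12 of the 30 nearest genes were shared when the pseudocount was 0.1.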

How the data were processed

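Total RNA of whole, snap-frozen lungs was made into TruSeq RNA libraries and sequenced in paired-end mode. The authors aligned the reads to mm10 with TopHat2 2.1.1 and Bowtie2 2.3.4, and counted reads per Gencode gene with HTSeq 0.10.0. The deposited counts are raw and cover 16152 genes. The CPM deposited by the authors divide each count by the mapped reads of the library, and 100.0% of them came out as whole reads (tolerance 0.01 reads), equal to the deposited counts. Whether counting used strand is not given in the sources used here, so overlapping antisense transcripts cannot be told apart. Symbols, positions and exon lengths come from Gencode vM21. The PSI (percent spliced in) table was not used here.

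Counts were tested with edgeR 4.0.16 (glmQLFit and glmQLFTest) after TMM normalization, in 1 fit of the 12 libraries, keeping the 15994 genes that reached 1 CPM in 3 or more of them. Per-library CPM are given without TMM factors, and mean ± SD over 3 libraries. The SE is the absolute log2 fold change divided by the square root of the F statistic of the test. The 95% intervals take the SE with a normal distribution, so they are approximate and narrower than the F test implies. A member was called at a Benjamini-Hochberg FDR under 0.05 and counted again with an absolute log2 fold change above 1. In counts simulated over 15994 genes for the E18.5 and P5 groups, 32 of 50 changed genes were called at a log2 fold change of 0.5, 50 of 50 at 1, 49 of 50 at 1.5 and 50 of 50 at 2, and 14 unchanged genes were called as well. The simulation gave every gene the same dispersion and changed only the genes counted above, at P5. In the data, 71.1% of all genes tested were past the threshold in that interval. The simulated rates are therefore not rates for the members. A second scaling set the mean log2 CPM of 18 epithelial genes equal in all libraries. Replicates differed by more than sampling noise in every pair (chi-square per gene 12.9 to 75.2 on average). DESeq2 1.42.0 and limma 3.58.1 (voom) were alternatives.

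All 10 members were named with their values, and in other lists the 3 genes with the largest absolute perinatal log2 fold change among those under the FDR with at least 1 CPM on average. *Krt8*, *Krt13*, *Foxj1*, *Nr3c1*, *Tg*, *Tfcp2l1*, *Foxp4*, *Klf2*, *Klf3*, *Klf6*, *Upk3b* and the transcripts next to members were named besides, after their values were seen. Some genes that the rule names are not reported here. The members and all lists were chosen with earlier results of these data known. The promoter windows, motifs and exclusions of libraries with foregut, thymus or heart genes were chosen after seeing the data.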

Additional observations from a re-analysis of the deposited data

How the results depend on the processing

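Each of the 40 changes (10 members, 4 comparisons) was recomputed under 27 other settings. Of the 26 past the FDR threshold, 13 kept direction and call in every setting, and 1 turned, *Gata6* from E18.5 to P5 (0.053, FDR = 0.587, with scaling to the epithelial list without keratins). The members past the threshold from E15.5 to E18.5 numbered 3 with epithelial scaling, 8 with DESeq2 and 0 without the E15.5 libraries with heart genes. From P5 to P8 they numbered 2 without the P8 libraries with foregut genes, with either scaling. With the fold change cutoff the counts were 0, 4, 1 and 4 in the order of the comparisons. Leaving out single libraries gave 3 to 8 members in the embryonic, 8 in the perinatal and 3 to 4 in the postnatal interval, and 8 to 9 over the whole course. Relative to the epithelial list, 8 members were past the threshold from E18.5 to P5, and 6 without keratins. The share of all genes past the threshold is not given here for these other settings. Moves in these counts are therefore not read as particular to the members. The cause of these differences was not tested, and the fits that leave out libraries also hold fewer of them.

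Results outside the threshold that turned direction from P5 to P8 with scaling to the epithelial list, with and without keratins, were *Nkx2-1* (-0.33 and -0.25), *Foxa2* (-0.18 and -0.10), *Foxp1* (-0.20 and -0.12) and *Cebpa* (-0.29 and -0.20), and *Klf5* did so from E18.5 to P5 (0.20 and 0.28). *Cebpa* also turned without the libraries with thymus genes (-0.32) or foregut genes (-0.33), as did *Elf5* (0.068 and 0.065). With epithelial scaling and without the foregut libraries, *Nkx2-1* (-0.137) and *Cebpa* (-0.60) turned from P5 to P8 and *Klf5* (0.204) from E18.5 to P5. Without single libraries, the postnatal change ranged from -0.044 to 0.067 for *Nkx2-1* and from -0.031 to 0.237 for *Cebpa*, and the perinatal change of *Klf5* from -0.183 to 0.013.

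The replicate numbers named littermates of different litters, and deviations of same-numbered libraries correlated between -0.353 and 0.296. With a replicate block, 6, 8, 4 and 9 members were past the threshold in the 4 comparisons. Splicing of the members was not run, because the deposited PSI table alone does not tie its events to genes. Whole reads recovered from the CPM gave the same number of members past the threshold in each comparison.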

Other observations

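Of 25 relatives of the members within their gene families, 20 passed the filter on low counts. They were divided from E18.5 to P5, with 9 up, 3 down and 8 not past the threshold (median log2 fold change 0.34). Of all genes, 71.1% were past it in this interval. *Foxa3*, the third FOXA gene, fell from 2.31 ± 1.18 to 0.138 ± 0.0522 CPM (log2 fold change -3.98, edgeR FDR = 2.57e-05), and *Foxp4*, which acts with *Foxp1* and *Foxp2* in airway epithelium, from 150.0 to 65.3 CPM on average (-1.11, FDR = 1.93e-08). *Gata2*, a factor of blood and endothelium, rose from 15.4 ± 1.08 to 76.6 ± 3.94 CPM (2.40). The Krüppel-like genes *Klf2*, a shear stress factor of endothelium (2.12), *Klf4* (2.34, on average 15.47 to 74.0 ± 3.26 CPM), *Klf3* (0.77) and *Klf6* (1.04) rose, where *Klf5* was not past the threshold (-0.07). These genes are used in endothelium and other lineages too.

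Transcripts next to the members were found within 10 kb in the annotation after seeing the data. *Sfta3-ps* starts 2531 bases downstream of *Nkx2-1* on the same strand and averaged 80.4 ± 10.4 CPM before birth (E18.5) and 80.0 ± 7.88 CPM at P5 (log2 fold change 0.08, standard error 0.17, edgeR FDR = 0.704), while *Nkx2-1* fell by 0.54. *Gm26973*, annotated antisense to *Nkx2-1* without sharing exon bases, fell with it, from 7.97 ± 0.487 to 5.1 ± 0.229 CPM (-0.56, FDR = 0.00212). The noncoding *9030622O22Rik*, which starts 2674 bases downstream of *Foxa2* on the same strand, fell as *Foxa2* did, from 4.40 ± 0.363 to 1.90 ± 0.418 CPM (-1.13, FDR = 0.000616). *Sox2ot*, whose gene spans *Sox2* without sharing exon bases, averaged 0.314, 0.0704, 0.0777 and 0.294 CPM at the 4 time-points and was under the filter, so it was not tested.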
